A study of Homo sapiens with 15 samples.

Results

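The change of the response to valproic acid between 6 and 10 h of treatment was measured in K562 cells as the log2 ratio on arrays labelled 10 h minus that on arrays labelled 6 h. Arrays were paired by replicate number, which gave 3 pairs from 6 of the 15 arrays of the study. K562 is an established human line from chronic myeloid leukaemia with erythroid features, and valproic acid is a short branched fatty acid used against epilepsy, and an inhibitor of histone deacetylases. On each array RNA of cells given 1 mM valproic acid was hybridised against RNA of cells given no agent and collected at the same time, so each value is a ratio of treated over untreated RNA at that time. The study sampled 2, 6, 10, 48 and 72 h with 3 replicates each. Each replicate came from its own thawing of the line, 10 days before treatment, and the treated RNA was labelled with Cy5 except in replicate 3, where the dyes were exchanged. Whether the ratios of replicate 3 had already been turned for the exchanged dyes is not stated; they were used with their signs as given, because they correlated above 0 with those of the other replicates. No base of the logarithm is given; base 2 was assumed, and every fold value below rests on it. A ratio holds no level, so whether these cells expressed the erythroid markers of K562 could not be checked. For the same reason a change of a ratio does not say whether treated or untreated cells changed.

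Histone deacetylases remove acetyl groups from histone tails and from other proteins, and their inhibition opens chromatin at some genes and lowers transcription at others. Genes that respond within hours can hold their response, extend it or give it back, and the step between neighbouring times shows which. Immediate early genes such as FOS respond to stimuli within minutes and are shut off again by their own products and by unstable RNA. Growth genes, such as those for ribosomes, nucleotides and charged transfer RNA, follow the demand for protein synthesis.

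Of 18334 genes measured, limma called 0 as higher and 0 as lower at 10 h than at 6 h at an adjusted p under 0.05. The lowest adjusted p was 0.0634, for TMEM145. At an unadjusted p under 0.05 the change was above 0 for 665 genes (3.63% of those tested) and below 0 for 779 (4.25%), or 7.88% together. Of all genes 50.8% were below 0 and 49.2% above it. The difference had 1 sign in all 3 pairs for 2733 genes above 0 (14.9%) and 2332 below 0 (12.7%). Without the replicate block, 1 gene was called as higher, TMEM145, at an adjusted p of 0.0339 with a dye term and 0.0257 without one, and 0 as lower. Other fits called between 0 and 2 genes in each direction. The unadjusted counts depended on the pairs: they were 1073 and 1862 without replicate 1, 631 and 419 without replicate 2, and 296 and 236 without replicate 3, or 5.85% and 10.2%, 3.44% and 2.29%, and 1.61% and 1.29% of all genes. These shares are the reference for the list counts without a replicate given below.

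For the ratios as deposited, the fit bounded the change for most genes. Its intervals leave out the choice of scaling. After quantile normalization the change lay outside the interval for some genes, such as CSRP2 (0.14, interval 0.25 to 1.02) and FBXL16 (−0.40, interval −0.28 to 0.57). For others, such as TMEM145 (0.79), it lay inside. The 95% interval of the change lay within 0.5 of 0 on the log2 scale, a fold of 1.41, for 16480 genes (89.9%), and within 1, a fold of 2, for 18239 (99.5%). Its median half-width was 0.18 and the median SE of a change 0.08. The middle of the distribution was narrow, with quartiles of −0.08 and 0.06 and 1st and 99th percentiles of −0.34 and 0.37. A change of 0.5 or more in size was estimated for 85 genes, 63 above 0 and 22 below 0. Only COPZ2, a coatomer subunit gene named after its values were seen, reached 1 in the mean (1.11). Its ratio was 3.28 on the replicate 1 array of 10 h and between −0.02 and 0.06 on the other 5 arrays, so this mean rests on 1 array.

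Most genes called at 10 h were also called at 6 h. At 6 h 3655 genes were higher (19.9% of those tested) and 1916 lower (10.5%) in treated cells, or 30.4% together. At 10 h 3413 were higher (18.6%) and 2219 lower (12.1%), or 30.7%. Of these, 2738 were higher at both times and 1454 lower at both, with median log2 ratios of 0.41 and 0.42 among the former and −0.32 and −0.33 among the latter. Only FYB1, an adaptor gene of immune cell signalling, was called with opposite signs, at 0.19 and −0.20. Its 2 probes differed, with changes of −0.71 and −0.05. The number of genes at least 2-fold higher was 167 at 6 h and 243 at 10 h, and that of genes at least 2-fold lower was 10 and 7. The SD of the mean ratios over genes was 0.27 at 6 h and 0.29 at 10 h. Calls at a single time, here and below, come from the fit with the replicate number as a fixed block. Spread between replicates that is equal at all times is therefore not in their SEs. GATA1, for example, had ratios of −0.40, −0.64 and −0.01 at 6 h and was called as lower (limma adjusted p = 0.000171). A dye effect need not cancel from the mean of a single time.

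**Figure D1:**
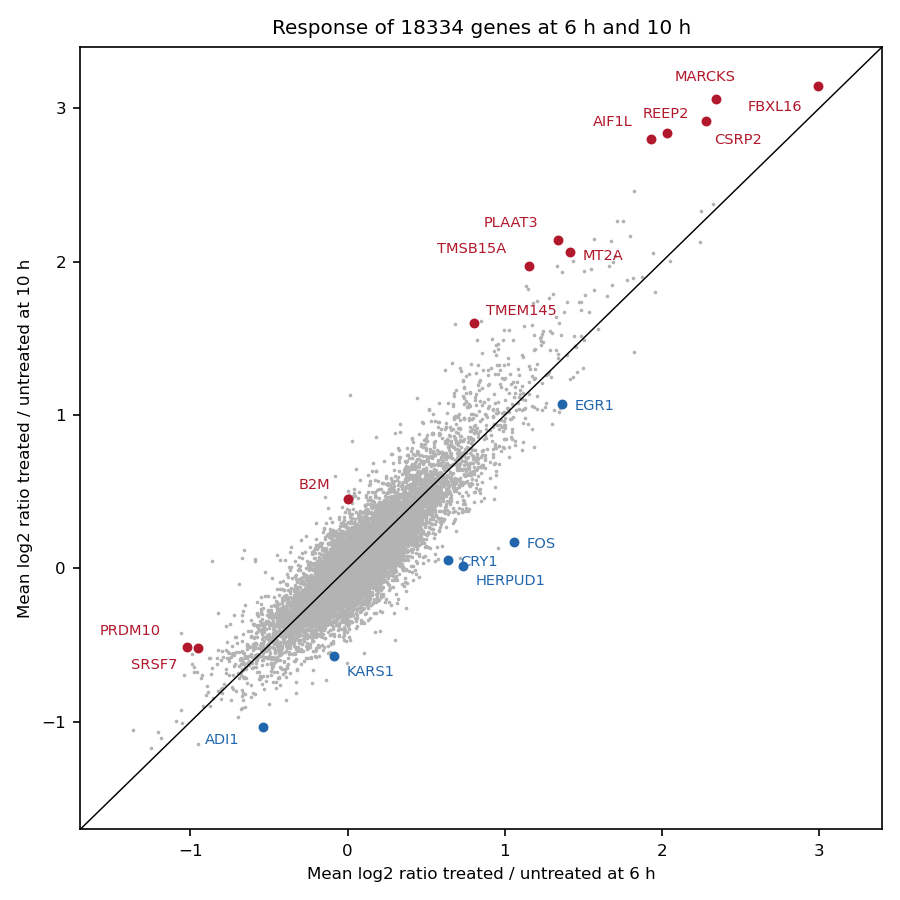
Mean log2 ratio of treated over untreated RNA at 6 h (horizontal) and 10 h (vertical) for 18334 genes, each point a gene's mean over 3 arrays, with genes named in the text in red where the change was above 0 and in blue where it was below 0. The diagonal is no change; most genes lie along it, TMEM145, TMSB15A, PLAAT3 and AIF1L lie above it, and FOS, CRY1 and HERPUD1 lie well below it.

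The 6 arrays were not equally alike. Over genes, the arrays of 6 h and 10 h with the same number correlated at 0.882, 0.694 and 0.750 for replicates 1, 2 and 3, as a description. The 6 h array of replicate 2 correlated at 0.881 with the 10 h array of replicate 1, more than with that of its own number. Replicate 3 stood apart at both times: its arrays correlated with those of replicates 1 and 2 at 0.505 to 0.707 over genes, and at no more than 0.339 over all probes, where arrays of replicates 1 and 2 correlated at 0.680 to 0.868. The SD of the pair differences over genes was 0.175, 0.241 and 0.212. Across genes the differences of pairs 2 and 3 correlated at 0.382, those of pairs 1 and 3 at 0.0486 and those of pairs 1 and 2 at −0.208. Pair differences are therefore given for the leading genes below.

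More genes passed in the steps on either side. From 2 to 6 h, which also spans 4 h, limma called 479 genes as higher (2.61%) and 189 as lower (1.03%), or 3.64% together. From 10 to 48 h it called 639 (3.49%) and 254 (1.39%), or 4.87%. From 48 to 72 h it called 0 genes in either direction. The difference between the step of 6 to 10 h and that of 2 to 6 h was tested for each gene and was called for 0 genes, with a lowest adjusted p of 0.183. Neighbouring steps share arrays, so no overlap between them is given.

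Among genes already induced at 6 h, the smallest p values above 0 belonged to TMEM145, PLAAT3, TMSB15A and PIR, which were named after their values were seen because limma called 0 genes. TMEM145, which encodes a membrane protein, had log2 ratios of 0.82, 0.87 and 0.71 at 6 h and 1.65, 1.59 and 1.55 at 10 h. The 3 arrays of each time lay close together and the groups did not overlap. Here and below, genes were picked largely by values on these same arrays, so a lack of overlap is description and no support. Its share over all genes was not counted. The change was 0.80 ± 0.10 (SE, with a 95% interval of 0.59 to 1.01 and a limma adjusted p of 0.0634). Its pair differences were 0.83, 0.72 and 0.84. Here and below, SEs and intervals rest on the spread of the arrays of all times in the fit, not on that of the 3 pairs alone. The same gene stood at 0.11 at 2 h, 2.62 at 48 h and 2.65 at 72 h, so its mean ratio at 10 h was between that at 6 h and that at 48 h.

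PLAAT3, a phospholipase and acyltransferase of lipid metabolism, had ratios of 1.39, 1.28 and 1.35 at 6 h and 2.09, 1.96 and 2.38 at 10 h. Its change was 0.80 ± 0.14 (interval 0.50 to 1.10; limma adjusted p = 0.282). For TMSB15A, a thymosin that binds actin monomers, the ratios were 1.27, 1.40 and 0.79 at 6 h and 2.23, 1.90 and 1.79 at 10 h. The lowest array of both times was replicate 3, and the groups did not overlap. Its change was 0.82 ± 0.14 (interval 0.51 to 1.13; adjusted p = 0.282 by limma). PIR, an iron-binding nuclear protein, went from a mean of 0.33 to 0.89, a change of 0.56 ± 0.09 with pair differences of 0.57, 0.65 and 0.45. Each of these genes had a higher mean at 48 h than at 10 h, with 3.83 for PLAAT3, 4.26 for TMSB15A and 2.02 for PIR.

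Several of the strongest responders at 6 h had still higher means at 10 h, but the size depended on how arrays were scaled. REEP2, which shapes the endoplasmic reticulum, went in its mean from 2.03 to 2.84, AIF1L, an actin-bundling protein, from 1.93 to 2.80, MARCKS, which binds membranes and actin, from 2.34 to 3.06, and CSRP2, a LIM domain protein, from 2.28 to 2.91. Pair differences were 0.69, 0.66 and 1.07 for REEP2, 1.17, 0.54 and 0.90 for AIF1L, 0.38, 0.60 and 1.17 for MARCKS, and 0.60, 0.23 and 1.08 for CSRP2, so they were uneven in all 4 genes. The 95% intervals of these changes were 0.44 to 1.18, 0.47 to 1.27, 0.15 to 1.28 and 0.25 to 1.02, and limma's adjusted p lay between 0.326 and 0.587. After scale normalization the changes of REEP2, MARCKS and CSRP2 were 0.53, 0.41 and 0.37, and after quantile normalization 0.33, 0.38 and 0.14. AIF1L had 0.60 and 0.58, and its 2 probes gave 0.61 and 1.13. FBXL16, an F-box protein gene and the highest of the labelled genes in the plot of both times, had a change of 0.15 (interval −0.28 to 0.57), which was −0.15 after scale and −0.40 after quantile normalization. GLRX, a thiol reductase gene, had a mean of 2.24 at 6 h and 2.13 at 10 h. TMEM145 had changes of 0.65 and 0.79 under the 2 scalings.

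Several further induced genes had the same sign in all 3 pairs. CRYM, a thyroid hormone-binding crystallin often induced by histone deacetylase inhibitors, had ratios of 0.82, 0.79 and 0.43 at 6 h and 2.14, 1.22 and 1.42 at 10 h. DHRS2, a short-chain dehydrogenase of the same list, had 0.30, 0.14 and 0.09 at 6 h and 1.26, 0.59 and 0.71 at 10 h. In both genes the groups did not overlap and replicate 1 gave the largest difference. Changes were 0.91 ± 0.28 for CRYM and 0.68 ± 0.20 for DHRS2, with limma adjusted p values of 0.556 and 0.549. DHRS2 was not called at 6 h (limma adjusted p = 0.403) and was higher at 10 h (0.000709), which does not show that the times differ. IGFBP2, which binds insulin-like growth factors, went from 0.85 to 1.61, TAC3, which encodes the neuropeptide precursor of neurokinin B, from 1.15 to 1.82, and S100A10, a partner of annexin A2, from 1.75 to 2.26. Replicate 2 gave the smallest difference in all 3 of these genes, at 0.61, 0.50 and 0.16. The S100A10 change of 0.51 was 0.30 after scale and 0.18 after quantile normalization.

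Alpha-class glutathione transferases conjugate glutathione to reactive compounds. GSTA3 had a change of 0.31 ± 0.05 (interval 0.19 to 0.43), GSTA5 of 0.54 ± 0.11 and GSTA2 of 0.41 ± 0.10. Each was smallest in replicate 2, at 0.21, 0.23 and 0.23. These genes are near-identical and a probe can bind RNA of several members, so their values are not independent. GSTA5 was called as higher after quantile normalization (limma adjusted p = 0.0285) and not otherwise (0.317 in the fit used here).

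**Figure D2:**
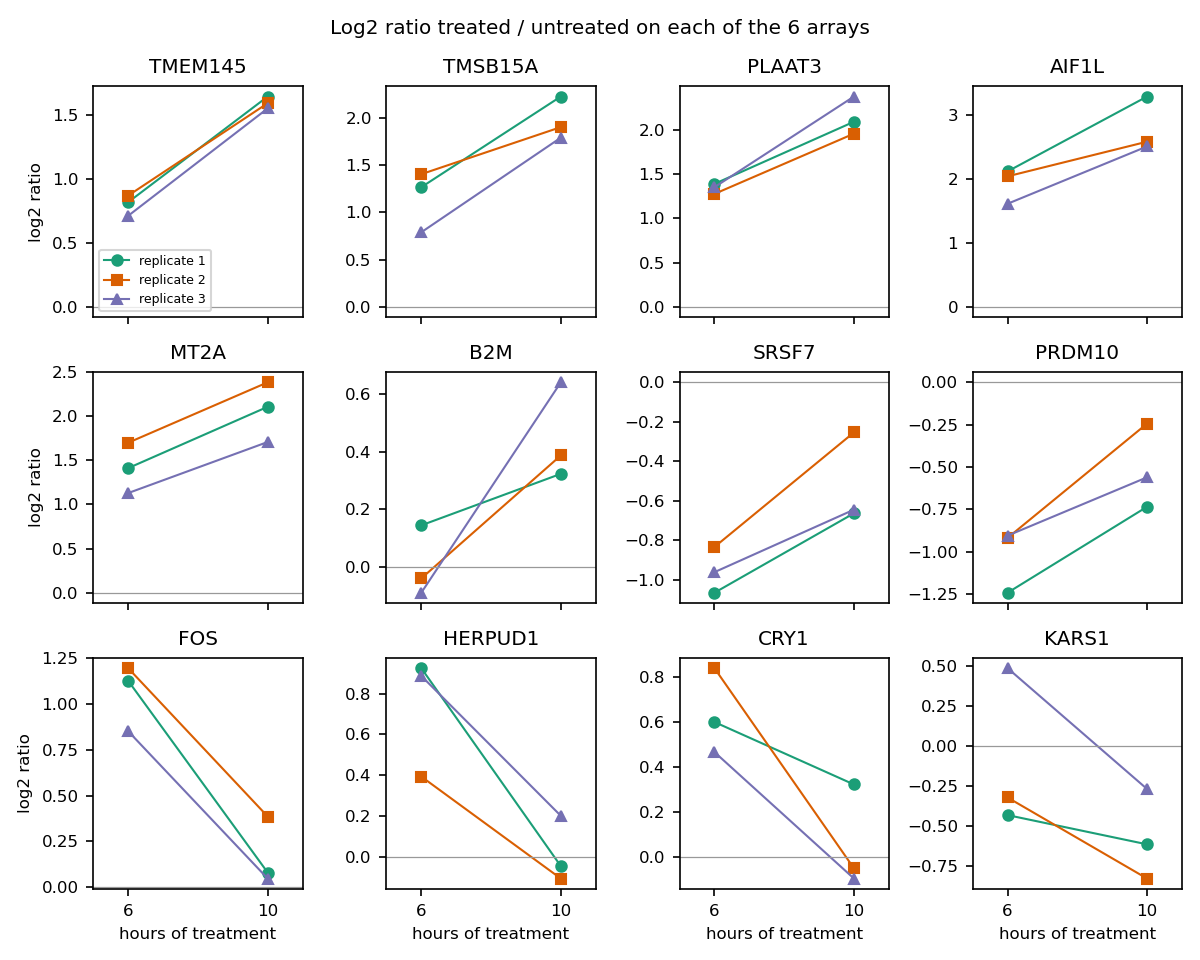
Log2 ratio of treated over untreated RNA (vertical, with a scale of its own in each panel) at 6 h and 10 h for 12 genes, with 1 line and marker for each replicate. The 12 genes were picked with their values known, so it is no support that all 3 lines point the same way in each panel. Of all genes 27.6% had 1 sign in all 3 pairs. The pair differences run from 0.18 to 0.73 for B2M and from −0.18 to −0.75 for KARS1.

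FOS had the largest estimate below 0. It encodes a subunit of the AP-1 transcription factor. Its log2 ratios were 1.13, 1.20 and 0.85 at 6 h and 0.08, 0.39 and 0.05 at 10 h. Every array of 10 h lay below every array of 6 h. The change was −0.89 ± 0.13 (interval −1.17 to −0.60; limma adjusted p = 0.206), with pair differences of −1.05, −0.81 and −0.81. FOS was higher in treated cells at 6 h (limma adjusted p = 9.16e-06), whereas its mean of 0.17 at 10 h did not pass (0.196). It was called as lower at 10 h than at 6 h in a fit of the 9 arrays of 2, 6 and 10 h (adjusted p = 0.0428) and after quantile normalization (−1.03, 0.0168), and not with the 6 arrays alone. Its course had more than 1 turn: the mean was 0.41 at 2 h, 1.52 at 48 h and 2.14 at 72 h. The steps from 2 to 6 h (0.65; limma adjusted p = 0.0212) and from 10 to 48 h (1.35; 0.000205) both passed as higher.

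HERPUD1, a membrane protein of endoplasmic reticulum-associated degradation, had ratios of 0.92, 0.39 and 0.89 at 6 h and −0.05, −0.11 and 0.20 at 10 h. Its highest array of 10 h lay below the lowest of 6 h. The change was −0.72 ± 0.14 (interval −1.03 to −0.41; limma adjusted p = 0.29), and the mean stayed at 0.13 at 48 h and 0.14 at 72 h. CRY1, a repressor of the circadian clock, had 0.60, 0.84 and 0.47 at 6 h and 0.32, −0.05 and −0.10 at 10 h. Its change was −0.58 ± 0.09 (interval −0.78 to −0.38; adjusted p = 0.282 by limma), and its 2 probes gave −0.66 and −0.50. CRY1 was called as lower after quantile normalization (adjusted p = 0.0285) and when probes were tested singly (0.0241). Of the 19 circadian clock genes measured, 9 were above 0 and 10 below 0, with a median change of −0.01. CRY1 and PER1 were the 2 below 0 at an unadjusted p under 0.05 (all genes 4.25%).

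Other genes had means further below 0 at 10 h than at 6 h. ADI1, an enzyme of methionine salvage, had ratios of −0.70, −0.41 and −0.51 at 6 h and −1.04, −0.91 and −1.16 at 10 h. All arrays of 10 h were lower than all of 6 h, and the change was −0.50 ± 0.10 (interval −0.71 to −0.28; limma adjusted p = 0.29). Its 3 probes gave changes between −0.60 and −0.30. Smaller estimates with the same sign in all pairs were seen for PPP1R14B, an inhibitor of protein phosphatase 1 (−0.35 ± 0.06), TIMM50, a subunit of the mitochondrial inner membrane translocase (−0.29 ± 0.05), AVEN, an apoptosis inhibitor (−0.36 ± 0.07), DUS1L, a tRNA dihydrouridine synthase (−0.32 ± 0.07), and CYC1, cytochrome c1 of the respiratory chain (−0.45 ± 0.10). Of these, PPP1R14B, TIMM50, DUS1L and CYC1 were not called at 6 h, and all 5 were lower in treated cells at 10 h and at 48 h. Here and below, a call at 1 time and not at the other does not show that the times differ.

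Some repressed genes had means nearer to 0 at 10 h. PRDM10, a zinc finger transcription factor, had ratios of −1.24, −0.92 and −0.91 at 6 h and −0.73, −0.24 and −0.56 at 10 h. The groups did not overlap, and the gene was lower in treated cells at both times. Its change was 0.51 ± 0.10 (interval 0.28 to 0.73; limma adjusted p = 0.317). SRSF7, a serine and arginine-rich splicing factor, had −1.07, −0.83 and −0.96 at 6 h and −0.66, −0.25 and −0.64 at 10 h, a change of 0.43 ± 0.10 (interval 0.22 to 0.65; adjusted p = 0.392 by limma). From 2 to 6 h both genes had passed as lower, by −0.57 for PRDM10 (limma adjusted p = 0.014) and −0.77 for SRSF7 (0.00349). MIR17HG, the host transcript of a microRNA cluster that MYC induces, had means of −1.21, −0.98 and −0.64 at 2, 6 and 10 h, and a change of 0.34 (interval 0.04 to 0.64). Its pair differences were 0.19, 0.77 and 0.05, so replicate 2 carried the change, which ranged from 0.12 to 0.48 with arrays or replicates left out.

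**Figure D3:**
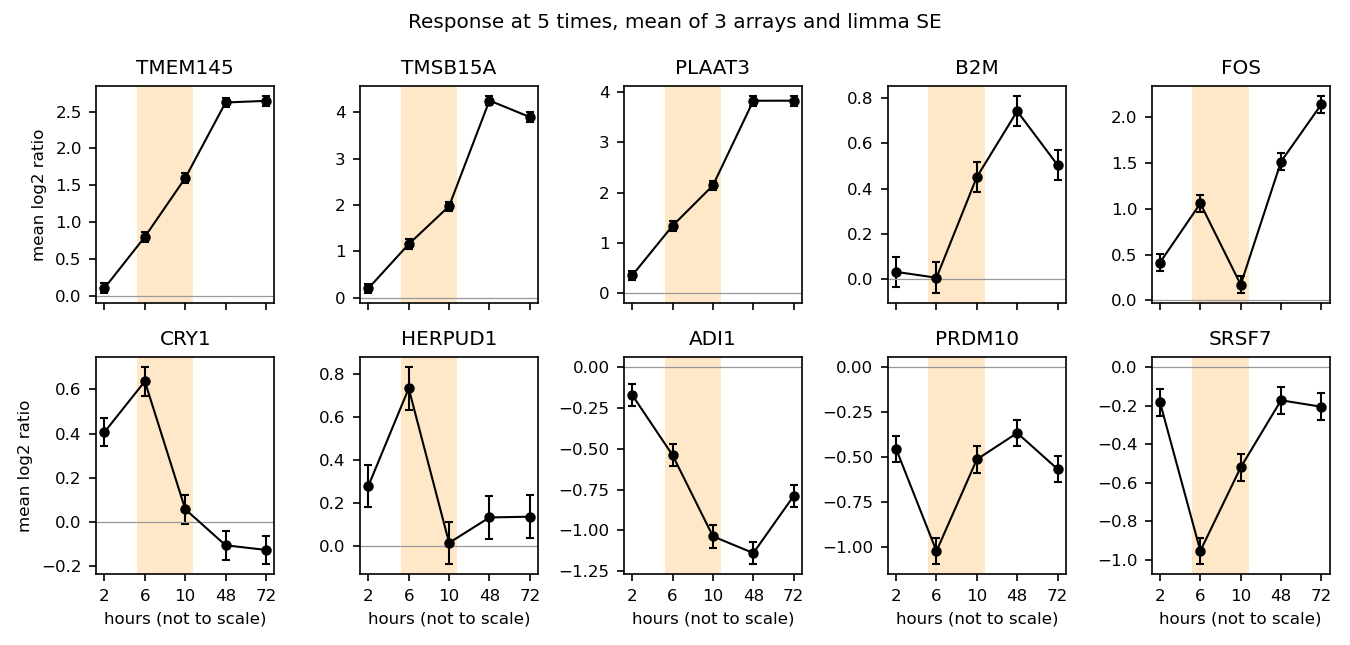
Mean log2 ratio of treated over untreated RNA at 5 times for 10 genes, with bars of 1 SE from limma, times evenly spaced and the span of 6 to 10 h shaded. TMEM145, TMSB15A and PLAAT3 have higher means at each time up to 48 h, whereas FOS, CRY1 and HERPUD1 have their highest early mean at 6 h and only FOS is high again at 48 h and 72 h.

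The promoters of FOS, HERPUD1 and B2M are shown as examples picked by hand. These genes stood near 0 at 1 of the times and away from 0 at the other, as did CRY1, whose promoter is not shown. That of MT2A was searched too and is not shown. The sequences are from RefSeq on GRCh38.p14, plus strand, 250 bases before to 50 after the gene's start, written 5′ to 3′, and capitals mark the letters searched. In FOS, at chr14:75278578-75278877, the capitals are TGACGT, part of the cyclic AMP response element. In HERPUD1, at chr16:56931892-56932191, they are the E-box CACGTG and CCAAT, which reads ATTGG on the opposite strand. In B2M, at chr15:44711267-44711566, they are a core of the interferon-stimulated response element, GAAA spaced by NN from GAAA, that matched at 2 overlapping places, an NF-kB-like site on the opposite strand, and CCAAT on the opposite strand.
FOS: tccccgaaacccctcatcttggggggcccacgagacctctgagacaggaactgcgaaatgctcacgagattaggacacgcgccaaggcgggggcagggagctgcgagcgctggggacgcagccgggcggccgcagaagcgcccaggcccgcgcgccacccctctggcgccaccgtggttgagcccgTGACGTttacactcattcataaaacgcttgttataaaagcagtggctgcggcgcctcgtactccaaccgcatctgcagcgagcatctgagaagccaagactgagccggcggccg
HERPUD1: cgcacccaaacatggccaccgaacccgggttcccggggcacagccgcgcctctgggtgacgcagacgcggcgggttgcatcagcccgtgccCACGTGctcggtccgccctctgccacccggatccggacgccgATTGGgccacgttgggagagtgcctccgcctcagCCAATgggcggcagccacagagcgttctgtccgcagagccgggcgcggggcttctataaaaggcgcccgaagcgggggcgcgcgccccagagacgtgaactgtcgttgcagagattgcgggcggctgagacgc
B2M: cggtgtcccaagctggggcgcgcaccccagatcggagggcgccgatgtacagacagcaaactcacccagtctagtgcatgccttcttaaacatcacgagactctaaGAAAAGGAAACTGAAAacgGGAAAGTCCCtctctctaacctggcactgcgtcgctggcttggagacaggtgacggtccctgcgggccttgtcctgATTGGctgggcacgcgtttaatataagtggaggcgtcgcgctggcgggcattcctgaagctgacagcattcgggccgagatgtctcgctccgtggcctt

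A promoter was found for 14410 of the genes tested, and both strands were searched. TGACGT, which also lies inside TGACGTCA, was in 10.1% of all promoters, in 7.47% of those of the genes above 0 at an unadjusted p under 0.05 and in 12.4% of those below 0. CACGTG was in 9.08% of all, 8.43% of those above 0 and 12.1% of those below 0. The response element core was in 3.00% of all, 2.49% above 0 and 2.02% below 0, the NF-kB-like site in 2.03%, 2.11% and 2.80%, and CCAAT in 36.4%, 38.1% and 40.1%. The E2F-like letters TTTGGCGC were in 130 promoters of all (0.902%), 2 of 522 above 0 (0.383%) and 13 of 643 below 0 (2.02%). TGACTCA was in 3.58%, 4.21% and 4.20%, and TGACGTCA in 2.73%, 2.11% and 2.95%. These are descriptions of letters in a window and were not tested.

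The gene lists used in the text were chosen with earlier results of these data known, so their counts are description and no support. Class I antigen presentation shows peptides of the cell's own proteins to T cells. Of 20 measured genes of this pathway 0 were called, 7 were above 0 at an unadjusted p under 0.05 (all genes 3.63%) and 0 below it. Their median change was 0.15, against −0.002 for all genes, with medians of 0.18, 0.08 and 0.17 in the 3 pairs. The median was 0.10 after scale and 0.09 after quantile normalization, with 3 and 6 genes above 0 at an unadjusted p under 0.05, and 2 such genes without replicate 3. B2M, the shared light chain, had ratios of 0.14, −0.04 and −0.09 at 6 h and 0.32, 0.39 and 0.64 at 10 h. The groups did not overlap, and replicate 3 gave the largest difference. The change was 0.45 ± 0.10 (interval 0.24 to 0.66; limma adjusted p = 0.37), while its 12 probes ranged from −0.03 to 0.59. B2M was not called at 6 h (limma adjusted p = 0.97) and was higher at 10 h (0.000361) and at 48 h, at 0.74.

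Other members of the pathway started above 0. PSMB8, a catalytic subunit of the immunoproteasome, had ratios of 0.44, 0.48 and 0.45 at 6 h and 0.87, 0.77 and 0.99 at 10 h, a change of 0.42 ± 0.10. The arrays of the earlier time lay close together and below all those of the later one. HLA-B, HLA-C and HLA-G, heavy chains whose probes may each bind the RNA of the others, had changes of 0.40, 0.54 and 0.48, and the peptide transporter gene TAP1 one of 0.31 (interval −0.16 to 0.77). In HLA-C replicate 2 differed by 0.09 and replicates 1 and 3 by 0.94 and 0.61. The change of HLA-B was 0.24 after scale normalization, and that of TAP1 0.14 after scale and 0.05 after quantile normalization. At 48 h the mean ratio was 2.74 for HLA-B, 3.02 for HLA-C and 1.38 for PSMB8.

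Interferon-stimulated genes serve antiviral defence. Of 32 measured 2 were above 0 (all genes 3.63%) and 0 below 0 (4.25%) at an unadjusted p under 0.05. Their median was 0.03. ISG20, an exonuclease gene of this kind, is not on the list and was named after its values were seen. Its ratios were −0.29, −0.03 and −0.07 at 6 h and 0.06, 0.58 and 0.54 at 10 h. Only its 10 h arrays were above 0, and the change was 0.52 ± 0.10 (interval 0.30 to 0.74; limma adjusted p = 0.29).

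Metallothioneins bind zinc and copper, and with the zinc transporters 18 such genes were measured. Of these, 6 were above 0 at an unadjusted p under 0.05 (all genes 3.63%) and 0 below it, and all 6 were metallothioneins. MT2A had ratios of 1.41, 1.70 and 1.13 at 6 h and 2.11, 2.38 and 1.71 at 10 h. The lowest array of 10 h was level with the highest of 6 h, and the pair differences were 0.70, 0.68 and 0.58. Its change was 0.65 ± 0.24 (interval 0.13 to 1.18; limma adjusted p = 0.593), and 0.50 and 0.44 after scale and quantile normalization. MT1G and MT1F had 0.50 each and MT1E 0.32, with 1 sign in all pairs. These genes are near-identical, and the count of 6 may stand for fewer separate measurements. The median over all 18 genes was 0.07, and without replicate 3 the count of 6 was 2, where the share over all genes was 1.61%.

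Actin-binding genes gave estimates of both signs. Of 36 measured, 8 were above 0 (all genes 3.63%) and 2 below 0 (4.25%) at an unadjusted p under 0.05. The median of 0.02 became −0.005 after scale normalization, when the counts were 3 and 2 (all genes 2.77% and 4.37%). TMSB10, a thymosin related to TMSB15A, had ratios of 0.49, 0.52 and 0.54 at 6 h and 1.09, 0.86 and 1.16 at 10 h. All 10 h arrays exceeded the 6 h arrays, and the change was 0.52 ± 0.12 (interval 0.26 to 0.78; limma adjusted p = 0.392). Of 35 neuronal and neuroendocrine genes 7 were above 0 and 0 below it at an unadjusted p under 0.05, led by REEP2, with a median of 0.04. The count of 7, beside 3.63% of all genes, was 3 without replicate 1, 3 without replicate 3 and 3 after scale normalization. For 24 genes that histone deacetylase inhibitors often induce the counts were 7 and 2 (all genes 3.63% and 4.25%), and the median was 0.05. After scale normalization they were 2 and 2, as they were without replicate 3. This list, which holds CRYM and DHRS2, was also chosen with earlier results of these data known.

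Aminoacyl-tRNA synthetases attach amino acids to their transfer RNA. Of 18 measured 0 were called, 17 were below 0, and 10 were below 0 at an unadjusted p under 0.05 (all genes 4.25%), with 0 above it. The median change was −0.26, the lowest of the 53 pathway lists, and the pair medians were −0.11, −0.26 and −0.34. It was −0.27 after scale and −0.25 after quantile normalization. The count of 10 was 7, 4 and 3 without replicates 1, 2 and 3, and the median then lay between −0.28 and −0.21. At 6 h 3 were higher and 2 lower in treated cells, and at 10 h 1 was higher and 8 were lower, where 12.1% of all genes were lower. The median ratio went from 0.05 to −0.25, and it was −0.35 at 48 h and −0.36 at 72 h.

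KARS1, the lysine enzyme, had ratios of −0.43, −0.32 and 0.49 at 6 h and −0.61, −0.83 and −0.27 at 10 h. The groups overlapped, since replicate 3 was higher than the others at both times, and each replicate was lower at 10 h. The change was −0.48 ± 0.14 (interval −0.79 to −0.17; limma adjusted p = 0.545). HARS1, the histidine enzyme, had −0.24 ± 0.07 and VARS1, the valine enzyme, −0.38 ± 0.14, each below 0 in all 3 pairs. IARS1, the isoleucine enzyme, had the largest estimate of the family at −0.59, but its pair differences were 0.38, −1.26 and −0.88 and its interval of −1.19 to 0.01 spans 0. The 22 measured genes of the ATF4 amino acid response, a programme that induces many of these enzymes, had a median of −0.05. At an unadjusted p under 0.05, 1 of them was below 0 (all genes 4.25%).

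Nucleotide synthesis genes had the next lowest median, −0.15 over 19 genes. Of these, 4 were below 0 (all genes 4.25%) and 0 above 0 (3.63%) at an unadjusted p under 0.05. The pair medians were −0.03, −0.22 and −0.20, and the count of 4 was 10 without replicate 1 and 1 and 0 without replicates 2 and 3. PAICS, an enzyme of purine synthesis, had a change of −0.19 ± 0.06, although its 3 probes ranged from −0.48 to 0.10. Ribosome biogenesis genes, by contrast, were low at both times. Of 37 measured, 30 were lower at 6 h (all genes 10.5%) and 33 at 10 h (12.1%), with medians of −0.46 and −0.50. The median change of −0.03 became 0.01 under either scaling. At an unadjusted p under 0.05, 2 were above 0 (all genes 3.63%) and 3 below 0 (4.25%).

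Splicing genes also gave estimates of both signs. Of 31 genes for splicing factors and RNA helicases, 3 were above 0 and 9 below 0 at an unadjusted p under 0.05. The shares over all genes were 3.63% and 4.25%. At 6 h 18 were lower (all genes 10.5%) and at 10 h 24 (12.1%). The 3 above 0 were SRSF7, SRSF6 (0.29) and TRA2A (0.20), serine and arginine-rich or related factors that were lower at 6 h. Among those below 0 were the helicase DDX39A (−0.47), SRSF2 (−0.41) and the spliceosome core protein PRPF8 (−0.27). DDX39A, SRSF2 and PRPF8 were not called at 6 h, and for SRSF2 the pair differences were uneven, at −0.01, −0.46 and −0.77. The count of 9 was 1 without replicate 3 and 11 without replicate 1.

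Of 28 immediate early genes 22 were below 0, and 4 were below 0 at an unadjusted p under 0.05, with 0 above it and a median of −0.08, beside 50.8% and 4.25% of all genes. The count of 4 was 8, 1 and 2 without replicates 1, 2 and 3. FOS was the only member under −0.5. NR4A1, a nuclear receptor of the same class, had a mean of 0.43 at 6 h and 0.23 at 10 h. EGR1, a zinc finger factor, had ratios of 1.43, 1.42 and 1.24 at 6 h and 1.35, 0.53 and 1.33 at 10 h. Only replicate 2 was clearly lower at 10 h, and the change was −0.29 (interval −0.65 to 0.06; limma adjusted p = 0.651). JUN, the partner of FOS in AP-1, had −0.09 (interval −0.59 to 0.42). Of 18 MAP kinase phosphatase and feedback genes, which switch off the signals that induce such genes, 16 were below 0 and 3 at an unadjusted p under 0.05. Without replicate 2 these counts were 10 and 0, and without replicate 3 they were 15 and 0. The pair medians were 0.05, −0.16 and −0.08, so replicate 1 lay on the other side of 0.

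Autophagy recycles the contents of the cell through the lysosome. Of 30 of its genes 23 were below 0 (all genes 50.8%), and 4 were below 0 at an unadjusted p under 0.05 (4.25%). The count of 4 was 8, 4 and 1 without replicates 1, 2 and 3. ULK1, the kinase that starts autophagy, had a mean of 0.81 at 6 h and 0.50 at 10 h, and each pair was lower. UVRAG, which acts in autophagosome maturation, went from 0.26 to −0.14, a change of −0.40 ± 0.10 (interval −0.62 to −0.18). ATG2A, a lipid transfer protein, had a change of −0.29. The highest estimate of the list was that of OPTN, a receptor for selective autophagy, at 0.46 (interval −0.07 to 1.00), with pair differences of 0.61, 0.14 and 0.64. ATG16L2, a relative of a core autophagy gene and not on the list, had a change of 0.60 (interval −0.01 to 1.20, limma adjusted p = 0.633). Its pair differences were close together, at 0.55, 0.65 and 0.59, whereas the interval rests on the spread of the arrays of all times. ATG16L2 was called as higher only with the 9 arrays of 2, 6 and 10 h. The list's median was −0.08, and 15 members were higher at 6 h (all genes 19.9%) and 10 at 10 h (18.6%).

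**Figure D4:**
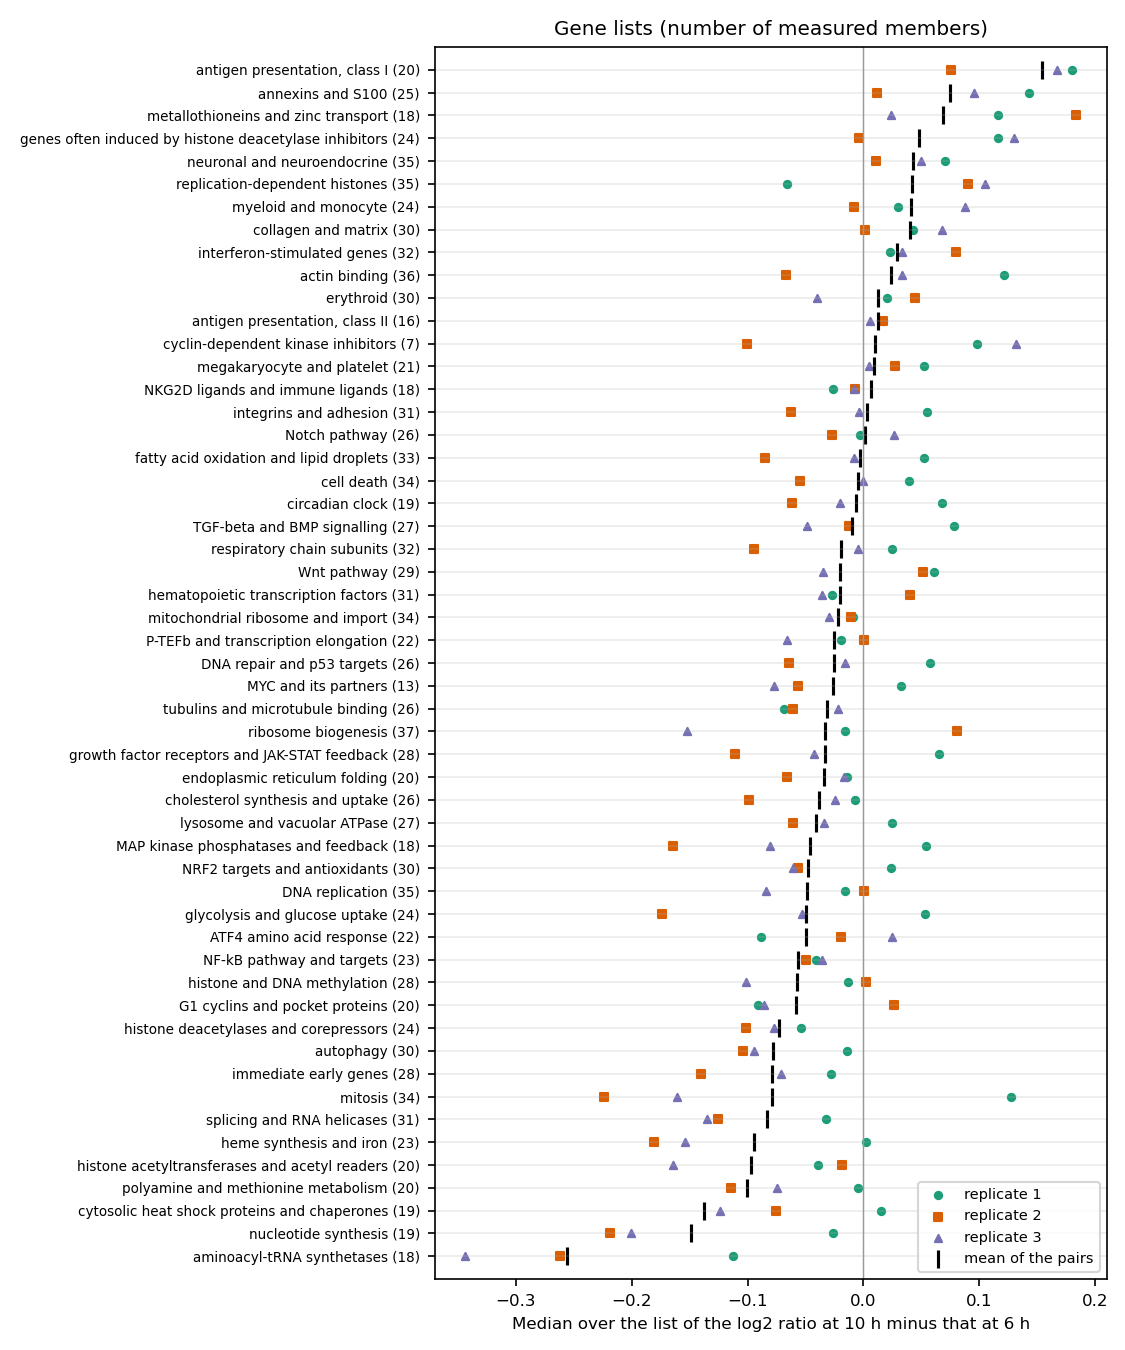
Median over the measured members of each of 53 gene lists of the log2 ratio at 10 h minus that at 6 h (horizontal). Numbers of measured members are in parentheses, and each replicate pair has 1 marker. The vertical tick, labelled mean of the pairs, is the median over members of each gene's mean change, so it can lie outside the markers. The aminoacyl-tRNA synthetases have the lowest median (−0.26) and class I antigen presentation the highest (0.15), and for mitosis genes replicate 1 (0.13) lies opposite to replicates 2 and 3 (−0.22 and −0.16).

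The lists of lineage and cell cycle genes given here had medians between −0.08 and 0.04, and some of their members had estimates further from 0. The 30 erythroid genes had a median change of 0.01. At an unadjusted p under 0.05, 3 were below 0 (all genes 4.25%) and 0 above 0 (3.63%). At 6 h 12 were lower (all genes 10.5%) and at 10 h 12 (12.1%). KLF1, an erythroid Krüppel-like factor, had −0.01 (interval −0.27 to 0.25), GATA1, the principal erythroid GATA factor, 0.11 (−0.03 to 0.25) and the transferrin receptor gene TFRC −0.16 (−0.48 to 0.16). Of 24 myeloid and monocyte genes 0 were at an unadjusted p under 0.05 in either direction, although the lowest estimate among them was −0.63. Of 21 megakaryocyte and platelet genes 1 was above 0 (all genes 3.63%) and 1 below 0 (4.25%) at that p. CD9, a tetraspanin of platelets, was the former, with a mean of 0.99 at 6 h and 1.55 at 10 h and pair differences of 0.38, 0.36 and 0.94. KIT, the stem cell factor receptor, went from 0.55 to 1.01, a change of 0.46 whose interval of −0.03 to 0.95 spans 0. The kinase inhibitor gene CDKN1A, which encodes p21, had a change of 0.03 (interval −0.29 to 0.34) and MYC, a driver of cell growth, one of 0.08 (−0.28 to 0.44). For these genes the interval, not the missed threshold, shows how large a change the fit to the arrays of all times leaves possible. These intervals hold for the ratios as deposited. Of 34 mitosis genes 11 were above and 23 below 0, and 1 was below 0 at an unadjusted p under 0.05. Without replicate 1 that count was 10 (all genes 10.2%). Of the 20 G1 cyclin and pocket protein genes, CDK4 had the lowest estimate, −0.43 (interval −0.75 to −0.11). Its pair differences were 0.04, −0.67 and −0.66.

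The later arrays, which the change did not use, held the following ratios for the genes at an unadjusted p under 0.05. The 665 genes above 0 had a median ratio of 0.005 at 6 h, 0.23 at 10 h, 0.28 at 48 h and 0.24 at 72 h. At 48 h 55.8% of them were higher and 6.62% lower in treated cells, where 23.5% and 14.6% of all genes were. The 779 genes below 0 had medians of 0.13, −0.11, −0.09 and −0.08 at the same times, and at 48 h 12.7% of them were higher and 36.5% lower. The later arrays share thawings and dye orientation with those of 6 h and 10 h, and each gene shares 1 estimate of spread, so these shares are a description.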

How the data were processed

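RNA of K562 cells was measured on 15 2-colour arrays, 3 at each of 5 times. The deposited table holds log2 ratios of treated over untreated RNA, per the labels, for 45220 probes with no missing value; the base is not stated. Per the submitters' processing notes limma was used, and background correction and normalization are not given in the sources used here. Values ran from −4.09 to 4.83. Intensities were not used, so no filter on dim probes was possible. The precision is limited by the number of arrays.

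Probes with 1 symbol in the platform annotation (31332) were kept, 31291 of them updated through a gene ID; 93 with several symbols and 13795 with none were left out. Probes were averaged over each of 18334 genes, 7759 of which had more than 1. In R 4.3.3, limma 3.58.1 (lmFit, eBayes) fitted 5 time means and the replicate number as a fixed block to all 15 arrays, which left 8 residual degrees of freedom beside a prior of 3.45, and the contrast 10 h minus 6 h had its p values adjusted over all genes (Benjamini and Hochberg). Adjusted p values in the text are from this fit unless another is named, and errors after ± are its SEs. The script was tested on simulated data. Responses at each time are time means tested against 0, with constant spread between replicates taken up by the block.

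Pairing rests on the labels, whose growth protocol gives each replicate its own thawing; the correlations below do not bear it out for replicates 1 and 2. Deviations from the time means correlated at 0.012, 0.065 and 0.632 for same-numbered arrays of 6 h and 10 h, and at 0.568 for 6 h replicate 2 with 10 h replicate 1. Both times hold the same dye orientations, so a dye effect that is equal at both cancels from the difference.

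The members and the 54 gene lists (1393 genes, 1308 measured) were chosen with earlier results of these data known, and 1 of the lists is a set of genes followed by name. The list of polyamine and methionine metabolism also holds ANTXR1, which does not belong there. Genes were named as those called, of which there were none, then up to 4 per list by lowest p and the followed genes. TMEM145, PLAAT3, TMSB15A (also on the actin list), PIR, TAC3, IGFBP2, PRDM10, the GSTA genes, PPP1R14B, AVEN, DUS1L, FYB1, COPZ2, ATG16L2, OPTN, ISG20, HLA-B, IARS1, TRA2A and PRPF8 were named after their values were seen. Alternatives were other blocks, samples, weights, scalings and probe summaries, and leaving out arrays.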

Additional observations from a re-analysis of the deposited data

Results flagged for a closer look

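Responses differed between times, by limma's contrasts, in the steps on either side of 6 to 10 h. At 6 h the response differed from that at 2 h for 668 genes, and at 48 h from that at 10 h for 893. FOS differed in both steps, by 0.65 from 2 to 6 h and by 1.35 from 10 to 48 h, while its 10 h minus 6 h change of −0.89 did not pass. TMEM145 also differed in both, by 0.69 and 1.03. The test of the difference between the steps of 2 to 6 h and 6 to 10 h gave an adjusted p of 0.183 for FOS and 0.914 for TMEM145.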

How the results depend on the processing

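Counts of genes called between 6 h and 10 h stayed at 0 in both directions with the 6 arrays alone, scale normalization (lowest adjusted p 0.680), medians of probes, a robust prior and each array or replicate left out. TMEM145 was the 1 gene called as higher without the replicate block, with or without a dye term, with a random block (adjusted p 0.0132), with array weights (0.00853) and among genes with 1 probe (0.0440). The 9 arrays of 2, 6 and 10 h called 2 as higher, TMEM145 and ATG16L2, an autophagy gene, and 1 as lower, FOS. Quantile normalization called 2 as higher, TMEM145 and GSTA5, and 2 as lower, FOS and CRY1, and probes tested singly called 1 as lower, CRY1. The cause of these differences was not tested. Signs turned for changes near 0: CDKN1A was −0.088 after scale and −0.14 after quantile normalization, MYC −0.0048 with array weights, KLF1 0.028 after scale normalization, and FBXL16 −0.15 and −0.40 after scale and quantile normalization. With single arrays or replicates left out, CDKN1A ranged from −0.14 to 0.29, MYC from −0.15 to 0.22, KLF1 from −0.20 to 0.16, FBXL16 from −0.045 to 0.46, GLRX from −0.36 to 0.042 and EGR1 from −0.48 to 0.0054. The list medians under single replicates and scalings, and the comparison of neighbouring steps, were added after the data were seen. Probe brightness was not used, so no result could be limited to bright probes.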
